A study of Mus musculus with 5 samples.

Results

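The mouse genes for antigen presentation by major histocompatibility complex (MHC) class II were followed across the cell types of chemotherapy-treated colonic tumors and of normal colon. The 7 genes were chosen by name, with earlier results of these data known: H2-Aa, H2-Ab1 and H2-Eb1, which encode chains of the peptide-binding molecules, Cd74, H2-DMa, H2-DMb1 and Ciita. They were 7 of the 21947 genes measured in at least 1 library of treated tumors, and all 7 were also among the 19223 genes of the normal colon library. Tumors had been induced with the mutagen azoxymethane (AOM) and the colitis agent dextran sodium sulfate (DSS) in mice of WT genotype, and the mice then received 5FU+Irinotecan, a pair of chemotherapy drugs. The background was C57BL/6J or a mix of C57BL/6J and 129. The study's methods give 3 cycles of the drugs, with tissue taken after the last cycle. The 4 tumor libraries were collected at day 1 (2 libraries), day 3 and day 6 post-treatment, all by the ordinary dissociation. The 1 library of normal colon came from an untreated WT mouse by a dissociation that enriches stroma. Each library was made by inDrop, a droplet method that counts unique molecular identifiers (UMIs). In this series no tumor library was untreated, so the comparison over time set the day 1 libraries (early) against day 3 and day 6 (late). The study calls the libraries of a time group biological replicates, and normal colon has no replicate.

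MHC class II molecules are αβ heterodimers that carry peptides from the endosomes to the cell surface, where CD4+ T cells read them. The invariant chain Cd74 holds the groove of a new heterodimer until it reaches the endosome, and H2-DM, the dimer of H2-DMa and H2-DMb1, then exchanges the last fragment of Cd74 for a peptide. Ciita is the master coactivator of these genes. It is constitutively active in dendritic cells, macrophages and B cells and can be induced by interferon-γ in many other cells, intestinal epithelium among them, and it is brought to their promoters by a complex assembled on short elements named X and Y.

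Ciita lies at chr16:10480059-10528418 of the mouse genome GRCm38. H2-DMa (chr17:34119541-34139101), H2-DMb1 (chr17:34153072-34160230), H2-Ab1 (chr17:34257689-34269419), H2-Aa (chr17:34282744-34287823, minus strand) and H2-Eb1 (chr17:34305867-34316674) lie in one region of chromosome 17, with H2-DMb2 (chr17:34143307-34151555) between H2-DMa and H2-DMb1. The promoters of 3 members are shown because the RefSeq promoter table (GRCm38.p6) held both elements in them. The 120 bases before the start site are given 5′ to 3′ on the gene's strand, with the X element (CTNGNAACT) and then the Y element (TGATTGG) in capitals; they cover chr17:34287824-34287943, chr17:34305747-34305866 and chr17:34153071-34153190 in this order:
H2-Aa: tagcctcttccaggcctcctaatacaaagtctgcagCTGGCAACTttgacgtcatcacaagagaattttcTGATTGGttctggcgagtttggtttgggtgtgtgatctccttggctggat
H2-Eb1: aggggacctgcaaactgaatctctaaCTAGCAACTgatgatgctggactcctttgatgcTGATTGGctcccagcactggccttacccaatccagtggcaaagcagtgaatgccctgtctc
H2-DMb1: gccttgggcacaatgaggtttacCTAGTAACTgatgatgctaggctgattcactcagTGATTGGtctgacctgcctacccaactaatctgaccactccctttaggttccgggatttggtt
The first base of X stood 84, 94 and 97 bases before the start site, and 25, 24 and 25 bases separated X from Y, so the spacing was nearly the same in the 3 genes. Start sites are those of RefSeq, whereas the gene spans above came from GENCODE. For H2-DMb1 the RefSeq start site (34153191) lies inside that gene span. On either strand of the 250 bases before the start, X was found in 3.467% and Y in 7.23% of 32851 promoters, and both in 0.2648%. X followed by Y within 30 bases was found in 5 promoters: these 3, and those of 1700048F04Rik and BC051142. The letters of X were chosen after these promoters had been read, so the match is a description of the sequence and no evidence of binding. Neither of the 2 promoters of H2-DMa in the table held X or Y in these letters, and H2-Ab1 and Ciita had no entry. The promoter of Cd74 is not reported here.

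After removal of barcodes with fewer than 500 genes or more than 15% mitochondrial counts, 8491 cells were kept: 748 and 2403 in the day 1 libraries (replicates 1 and 2), 1419 at day 3, 2826 at day 6 and 1095 in normal colon. Values of the 4 tumor libraries are given in this order. These held 5124405 to 16786230 UMIs per library, with a median of 2903 to 3601 per cell. Pairs of libraries shared 4 to 42 barcode sequences. The member genes were left out when cells were clustered, so that a cluster could not form on them, and clusters were called X-like from marker genes. Several clusters were almost confined to 1 library: of the 4 clusters of differentiated columnar cells, led by Clca4a, Clca4b, Krt20, Car1 or Ido1, 1 lay mostly in day 1 replicate 2, 1 in day 3 and 2 in day 6. A single index marked the libraries of day 1 replicate 1 and day 3, and a dual index those of day 1 replicate 2, day 6 and normal colon. Levels below are UMI counts summed over the cells of a type in a library, scaled to counts per 1000000 of their summed UMIs (CPM). Intervals are exact 95% Poisson intervals and cover counting error alone.

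The highest levels were in the professional antigen-presenting cells, in each library where they could be measured. In C1q macrophage-like cells, named for the complement genes C1qa, C1qb and C1qc, H2-Aa stood at 10789, 7750 and 15008 CPM in the first day 1 library (10 cells), the other day 1 library (21 cells) and day 6 (41 cells), and at 7726 CPM in normal colon (47 cells). Cd74 stood at 13764, 4657 and 7656 CPM in the same tumor libraries and at 5611 CPM in normal colon. Ciita was lower in the normal library than in the tumor libraries, with 577, 465 and 226 CPM against 40.8 CPM, the latter from 7 counts (95% interval 16.4 to 84.0 CPM). Levels of the α chain in the other macrophage-like cells were 5783, 2907 and 7455 CPM in the same tumor libraries and 13532 CPM in normal colon (10 cells). These cells had less C1q, with a sum of 586, 332 and 2892 CPM over the 3 genes in these tumor libraries, against 13829 CPM in the C1q macrophage-like cells of day 6. Dendritic-like cells had 6422 CPM of H2-Aa in day 1 replicate 2 (10 cells) and 9843 CPM in day 6 (31 cells). B cell-like cells had 7528 CPM in day 6 (79 cells) and 5383 CPM in normal colon (28 cells), with Ciita at 372 and 283 CPM. These types stood above the remaining named types of their library in H2-Aa. A cluster of 14 normal cells, left unnamed since a single marker of 4 passed, was led by Il1b, Cd83 and Cytip and had 13326 CPM of H2-Aa, 8508 CPM of Cd74 and 161 CPM of Ciita. It held 22.9% of the H2-Aa counts of the normal library.

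Plasma-like cells, the antibody-secreting stage at which B cells are known to silence Ciita, had much less. H2-Aa was at 453 and 281 CPM at day 1, 1081 CPM at day 6 and 276 CPM in normal colon, and Ciita was at 0, 7.39 and 14.7 CPM and at 0 in normal colon. Cd74 was at 1953, 672 and 1103 CPM and at 1094 CPM. The plasma-like cells thus had 4.32, 2.39, 1.02 and 3.97 Cd74 counts per H2-Aa count in these 4 libraries, against 0.543 and 0.748 in B cell-like cells of day 6 and normal colon.

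The remaining class II genes separated the antigen-presenting cells from one another. H2-Ob, a subunit of the inhibitor of H2-DM, was at 455 CPM in B cell-like cells of day 6 and 729 CPM in those of normal colon, against 4.04 CPM in C1q macrophage-like cells of day 6. H2-DMb2, the near copy of H2-DMb1, was at 607 CPM in B cell-like, 219 CPM in dendritic-like and 101 CPM in C1q macrophage-like cells of day 6, and H2-Eb2 at 103 CPM in B cell-like cells and 0 in the other 2 types. In columnar cells of day 6 H2-Ob, H2-DMb2, H2-Eb2 and H2-Oa had 2, 11, 4 and 1 counts over 1368 cells, at most 1.29 CPM. Reads of H2-DMb1 and H2-DMb2 may be split wrongly because of their likeness, and the counts of both are uncertain to that extent. H2-Ea was not analysed here.

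Columnar tumor cells carried little class II RNA at day 1 and day 3 and much more at day 6. H2-Aa stood at 72.8 and 38.81 CPM in the day 1 libraries (280 and 1232 cells), 91.2 CPM at day 3 (896 cells) and 1651 CPM at day 6 (1368 cells, 95% interval 1624 to 1679 CPM). Its partner H2-Ab1 stood at 67.4, 31.3, 99.7 and 1345 CPM, and H2-Eb1 at 110, 36.3, 127 and 935 CPM, in the same order. Day 6 was far above the other libraries for each chain, while day 3 lay within a factor of 2 of day 1 replicate 1. Cd74 stood at 164, 24.7, 178 and 1034 CPM. For the peptide exchange dimer, H2-DMa was at 4.49, 2.90, 2.30 and 83.5 CPM, and H2-DMb1 at 15.7, 2.90, 39.1 and 165 CPM. Ciita had 10, 27, 23 and 474 counts, that is 3.21, 2.38, 5.30 and 55.4 CPM. The late libraries lay above both early ones, without overlap, for 6 of the 7 genes, against 11% of 16233 genes with at least 10 counts, but for H2-DMa day 3 lay below both day 1 libraries. In all, 54.3% of the H2-Aa counts of the day 6 library were in columnar cells, against 11.2% and 13.1% at day 1, where the macrophage-like cells held the most, and 55.9% at day 3, where C1q macrophage-like cells, fewer than 10 and so given no level, held 19.9%. Columnar cells were 280 of 748, 1232 of 2403, 896 of 1419 and 1368 of 2826 cells of the 4 libraries. The shares of counts follow the number and depth of these cells and are no measure of enrichment.

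The late minus early difference was tested with edgeR's quasi-likelihood test on the 4 sums. The fitted log2 differences were 4.43 ± 1.35 (SE) for H2-Aa, 4.34 ± 1.26 for H2-Ab1, 3.31 ± 1.08 for H2-Eb1, 3.13 ± 1.18 for Cd74, 4.07 ± 1.48 for H2-DMa, 3.98 ± 1.07 for H2-DMb1 and 3.95 ± 1.13 for Ciita. None of the 7 passed an adjusted p of 0.05 (edgeR adjusted p 0.207 to 0.271), nor did any of the 13518 genes tested (0%), of which 2262 had an unadjusted p under 0.05. The spread between day 3 and day 6 was part of the error of this test. DESeq2 on the same sums called 7 of 7 higher, against 2.79% of all genes, and so did edgeR without the day 3 library (5.61% of all genes) and with no filter on low counts (3.13% of all genes). An exact permutation test of 2 against 2 libraries cannot give a p below 0.333. Between libraries of the same index structure, H2-Aa differed by 0.26 and Cd74 by 0.10 on the log2 scale with 20 CPM added from day 1 replicate 1 to day 3 (single index). From day 1 replicate 2 to day 6 (dual index) they differed by 4.83 and 4.56. Day 3 and day 6 differ in structure, so that day and structure cannot be told apart between these 2 libraries.

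Whether these counts could be free RNA, which leaks from lysed cells into every droplet, was measured at day 6. The measures were reference types other than the antigen-presenting cells, and markers of those cells. Whether the reference types make some of this RNA themselves was not tested. In T cell-like cells (137 cells), H2-Aa was at 882 CPM, Cd74 at 588 CPM and Ciita at 39.0 CPM, so these genes were counted at day 6 in cells that are known for none of them. Over 6 reference types (T cell-like, NK-like, neutrophil-like, cancer-associated fibroblast (CAF)-like, endothelial-like and lymphatic endothelial-like) H2-Aa ranged from 463 to 1083 CPM. Columnar cells lay above the highest reference by 1.53-fold in H2-Aa, 1.76-fold in Cd74 and 1.08-fold in Ciita. Differentiated columnar cells lay above it by 2.28-fold, 2.37-fold and 1.03-fold. For Ciita the highest reference rested on few counts and lay above the 39.0 CPM of T cell-like cells, so its folds are imprecise. As a marker of macrophage RNA, the sum of C1qa, C1qb and C1qc was 30.3 CPM in columnar and 42.5 CPM in T cell-like cells, against 13829 CPM in C1q macrophage-like cells. At the ratio of H2-Aa to C1q in those macrophages, their RNA would give 1.99% of the H2-Aa of columnar cells and 5.23% of that of T cell-like cells. At the corresponding ratio to B cell markers, B cell-like cells would give 1.40% of the columnar level. RNA of the other macrophage-like and dendritic-like cells of day 6, with 2.58 and 259 H2-Aa counts per C1q count against 1.09 in the C1q macrophage-like cells, is not bounded by these figures. Krt8, a keratin of columnar cells, was at 6372 CPM in columnar cells and at 1239 to 2691 CPM in the reference types, so RNA of columnar cells was counted in the reference types too. Before day 6 the levels were within or near the range of the reference types of the same library. Columnar H2-Aa lay below each of 3 reference types in day 1 replicate 1 (97.7 to 389 CPM) and above 2 of 6 in day 1 replicate 2 (30.6 to 142 CPM), where differentiated cells, at 47.3 CPM, lay below the reference median of 69.4 CPM. At day 3 columnar cells lay above each of 4 reference types (27.7 to 87.3 CPM). The highest of these, in only 27 lymphatic endothelial-like cells, was close to the columnar level, so this order is imprecise. Krt8 at day 3 was at 2622 CPM in columnar cells and at 1627 to 2174 CPM in the reference types.

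**Figure D1:**
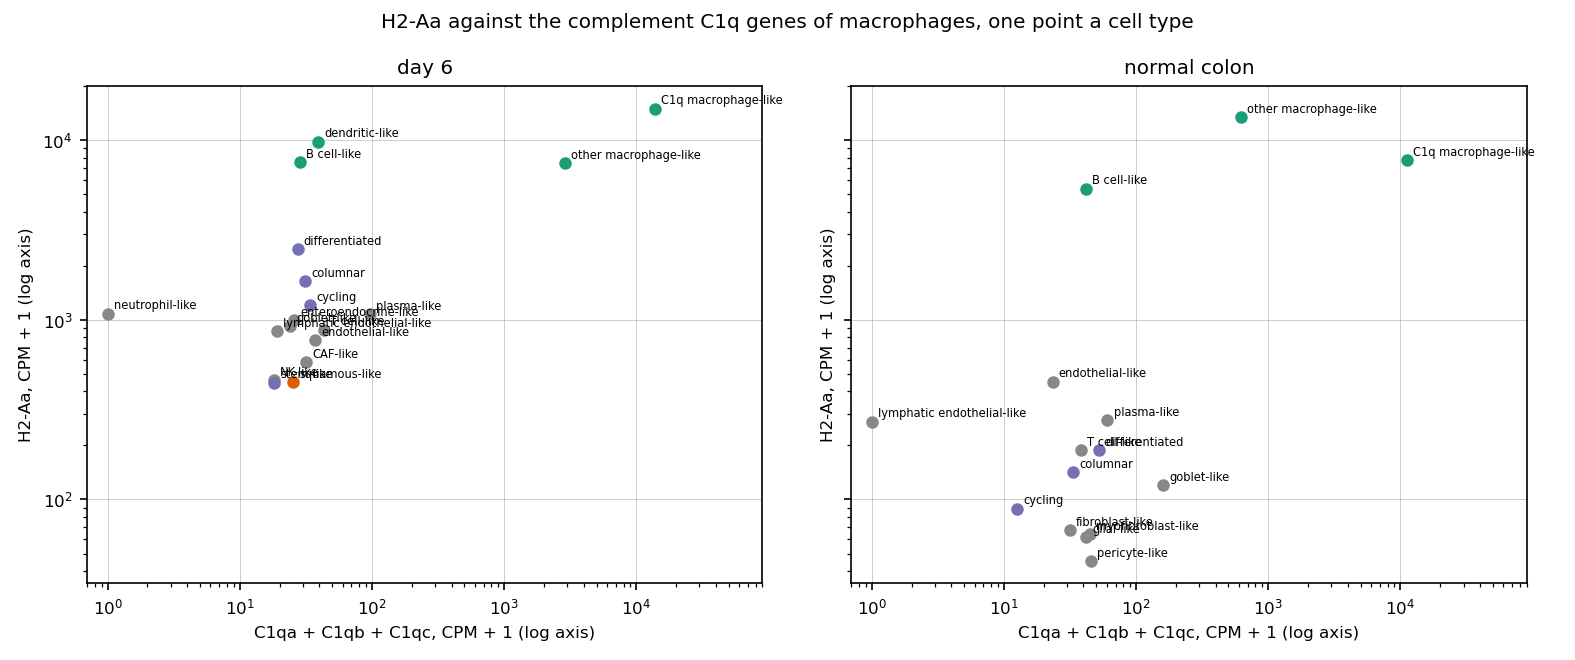
H2-Aa (CPM, log axis) against the summed C1qa, C1qb and C1qc (CPM, log axis) by cell type in the day 6 and the normal colon library. At day 6 columnar cells lie at 1651 CPM of H2-Aa with 30.3 CPM of C1q, whereas C1q macrophage-like cells lie at 15008 and 13829 CPM.

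Clusters of unequal depth were then set side by side. At day 6, 2 clusters of differentiated columnar cells differed in depth, with medians of 1705 and 9756 UMIs per cell. They had 1979 CPM and 2632 CPM of H2-Aa, and 23 of 326 and 0 of 208 cells were without a count. The 2 clusters of cycling columnar cells, with medians of 1262 and 13902 UMIs, had 1315 CPM and 1186 CPM. Among squamous-like clusters of day 6 the shallowest (1453 UMIs) had 913 CPM, and the deeper ones (5804 and 7986 UMIs) had 465 and 382 CPM. The H2-Aa counts per cell of these 3 squamous-like clusters were 1.56, 3.06 and 3.26, against 1.82 in T cell-like cells and 30.4 in the deep differentiated cluster. The counts were spread over the columnar cells of day 6, of which 130 of 1368 had none, and the top 5% of cells held 30.1% of them. In the other 3 tumor libraries the top 5% held 35.7%, 56.9% and 60.6%, and 160 of 280, 980 of 1232 and 715 of 896 cells had none.

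With each cell thinned to 1000 UMIs, a Cd74 UMI was found in 12.5%, 2.03%, 14.6% and 62.1% of columnar cells of the 4 tumor libraries. At day 6 the share was 69.2% in differentiated columnar, 39.8% in T cell-like, 27.5% in CAF-like and 18.6% in squamous-like cells. Before thinning the columnar shares were 50.7%, 10.8%, 33.3% and 83.2%, at a median depth of 2065 UMIs at day 6 against 1922 for T cell-like cells. The share in columnar cells of day 6 was therefore above that of cells that should lack the gene, which itself was far above the share in columnar cells of the 3 other libraries. For Ciita the thinned shares at day 6 were close, at 5.00% of columnar and 3.01% of T cell-like cells.

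Within columnar tumor cells, each of the 7 genes was higher in differentiated than in stem-like cells in the edgeR fit. H2-Aa stood at 114, 47.3, 122 and 2467 CPM in differentiated cells (46, 414, 245 and 539 cells) and at 62.8, 23.7, 61.3 and 446 CPM in stem-like cells (156, 395, 23 and 16 cells) of the 4 tumor libraries. H2-Aa CPM was higher in differentiated cells in each of the 4 libraries. In day 1 replicate 2 its counts were 120 in differentiated and 104 in stem-like cells, so counts per cell were close. At day 6 stem-like cells lay below the lowest reference type, and in day 1 replicate 1 differentiated cells lay within the reference range. Summed C1q was 16.0, 20.5, 22.1 and 26.4 CPM in differentiated and 16.8, 6.61, 15.3 and 17.2 CPM in stem-like cells. The part of free RNA in these differences was not tested. The edgeR difference over the 4 libraries, with library as a block, was 2.08 ± 0.31 for H2-Aa, 2.02 ± 0.24 for H2-Ab1 and 1.40 ± 0.29 for H2-Eb1. It was 1.34 ± 0.30 for Cd74, 2.55 ± 0.43 for H2-DMa, 2.89 ± 0.37 for H2-DMb1 and 2.01 ± 0.49 for Ciita. All 7 were called higher (edgeR adjusted p at most 0.0018), against 22.9% of the 10520 genes tested. Cd74 is the exception by level, with 224, 18.5, 224 and 1394 CPM in differentiated and 163, 23.7, 115 and 366 CPM in stem-like cells, so that it was lower in differentiated cells of day 1 replicate 2 by this measure. The fit rescales libraries by TMM (trimmed mean of M-values). With total counts as the scale the differences were smaller, at 1.48 for H2-Aa, 0.76 for Cd74 and 1.39 for Ciita, and 7 of 7 were still called. That scale moved the median of all genes from -0.01 to -0.55 and the split of calls from 2411 higher and 2155 lower to 1288 and 4420.

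**Figure D2:**
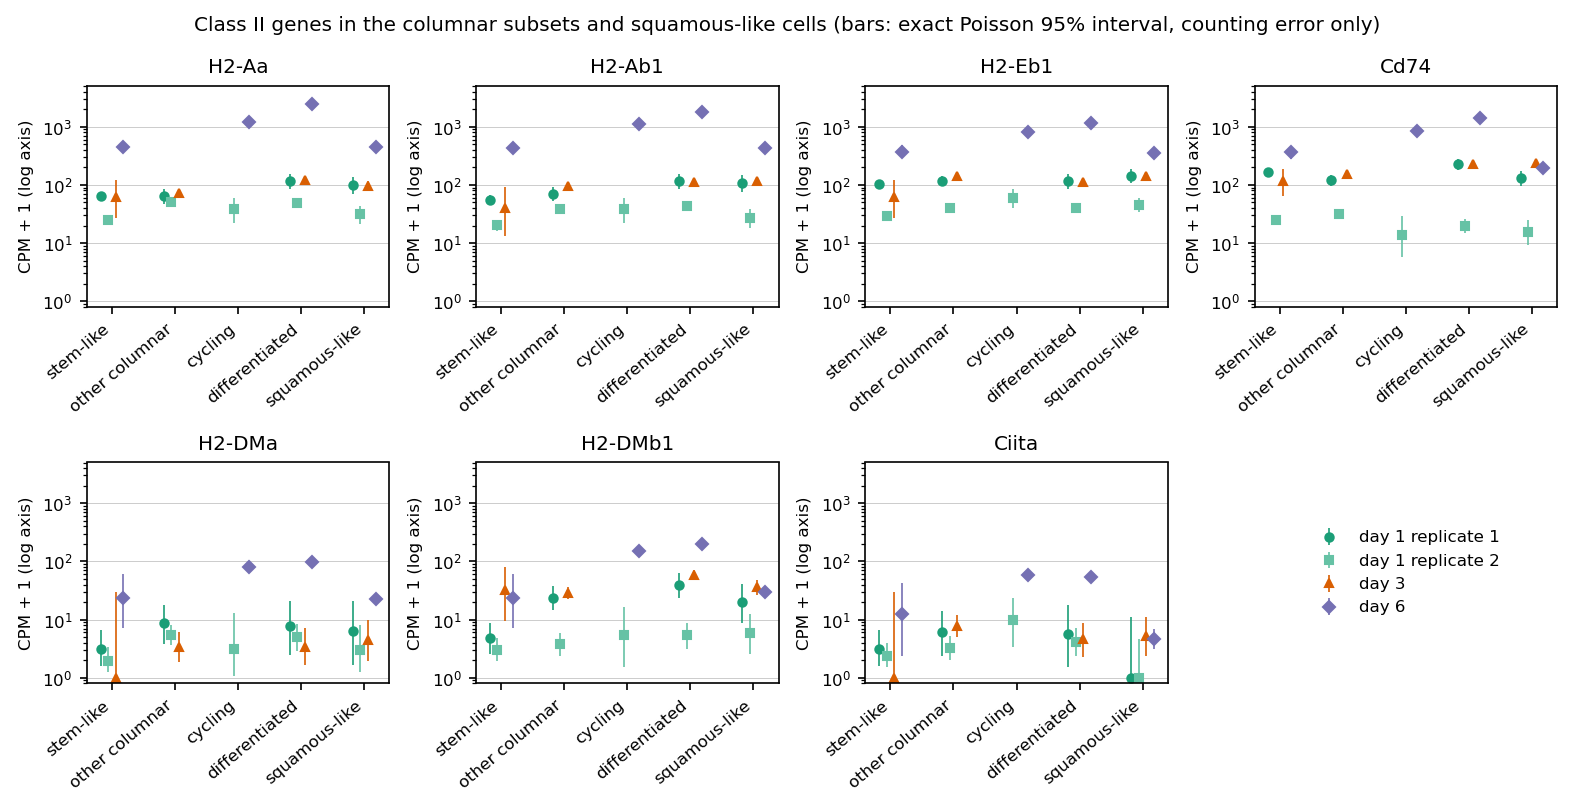
Level of each of the 7 genes (CPM + 1, log axis) in columnar subsets and squamous-like cells, with 1 point per tumor library and exact 95% Poisson intervals as bars. For H2-Aa day 6 lies highest in each group where it has a point, whereas in squamous-like cells day 3 (239 CPM) lies above day 6 (195 CPM) for Cd74, as it does for Ciita and H2-DMb1, and within day 6 H2-Aa falls from 2467 CPM in differentiated to 446 CPM in stem-like cells.

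Fewer of the genes were called in the other epithelial subsets, each again set against stem-like cells. In cycling columnar cells 5 were higher (H2-Ab1, H2-Eb1, H2-DMa, H2-DMb1 and Ciita, against 15.7% of all genes), and H2-Aa was at 36.8 CPM in day 1 replicate 2 and 1206 CPM in day 6. These clusters were called cycling from cell cycle markers such as Mki67 and Top2a, but no such marker was among their 10 leading genes, which included Muc3, Pigr and Reg3b, and Muc3 is a marker of differentiated cells. In Paneth-like cells 4 were higher (H2-Aa, H2-Ab1, H2-Eb1 and H2-DMb1, against 15.5%), with H2-Aa at 198 and 42.7 CPM at day 1 and 55.3 CPM at day 3 and Ciita at 0 in these 3 libraries. These H2-Aa levels lay within the range of the reference types of the same libraries. The Paneth-like cluster had a median of 1946 UMIs per cell, against 8120 in the stem-like cluster. The part of free RNA in these calls was not tested. In goblet-like cells 2 were higher (H2-Ab1 and H2-DMb1, against 16.1%). Hormone-producing enteroendocrine-like cells had 0 called, against 9.54%, with H2-Aa at 59.3, 33.1, 63.3 and 992 CPM. In the columnar cells of no named subset 5 were higher (H2-Aa, H2-Ab1, H2-DMa, H2-DMb1 and Ciita, against 10.6%). One of their 2 clusters, of 666 cells mostly from day 3, had no columnar marker among its 10 leading genes. On the total-count scale the higher and lower calls over all genes went from 1649 and 1243 to 1130 and 1435 for cycling cells, from 1629 and 1237 to 842 and 2470 for Paneth-like cells, from 1689 and 1258 to 1078 and 2183 for goblet-like cells and from 1110 and 764 to 768 and 1023 for the unnamed columnar cells.

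Squamous-like tumor cells, a keratinized epithelium with Krt5 and Krt14, had a day 6 level below that of columnar cells for each member. H2-Aa stood at 97.6, 30.1, 95.3 and 448 CPM (53, 188, 283 and 730 cells) in the 4 tumor libraries, and Cd74 at 130, 14.5, 239 and 195 CPM. In the first 3 libraries H2-Aa was close to the columnar level, and at day 6 it lay below the lowest of the 6 reference types, as did Cd74, H2-Ab1 and H2-DMa. Ciita had 0, 0, 5 and 17 counts, or 0, 0, 4.26 and 3.69 CPM, with upper 95% limits of 9.996 and 3.577 CPM for the 2 libraries at 0. These limits lie above the columnar levels of the same libraries, so a difference at day 1 was not detectable at this depth. The squamous-like minus columnar difference, with library as a block, was -3.07 ± 0.77 for Ciita (edgeR adjusted p 0.025), the 1 member called, against 9.11% of 13485 genes called lower. No member was called without day 1 replicate 1, without day 1 replicate 2, without day 6, or without the columnar clusters that had no leading columnar marker. The differences of the other 6 were -0.44 ± 0.40 for H2-Aa, -0.27 for H2-Ab1, -0.14 for H2-Eb1, -0.74 ± 0.46 for Cd74, -1.23 ± 0.55 for H2-DMa and -0.92 for H2-DMb1. Without the day 6 library, those of H2-Aa, H2-Ab1, H2-Eb1, Cd74 and H2-DMb1 turned positive. Among the squamous-like clusters, 1 of 301 cells, led by Krt16 and Ltf, had no squamous marker among its leading genes, and another of 301 cells, mostly from day 3, was led by hemoglobin genes.

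The same comparison over time was made in squamous-like cells. The late minus early log2 difference was 2.28 ± 0.80 for H2-Aa, 2.25 for H2-Ab1, 1.58 for H2-Eb1, 1.85 ± 0.82 for Cd74 and 1.80 for H2-DMb1. None of these 5 members tested was called (edgeR adjusted p 0.998), nor any of 9788 genes (0%), of which 387 had an unadjusted p under 0.05, and DESeq2 called 0 of the 5 too. The difference between the changes of the 2 epithelia was tested as an interaction. It was -1.28 ± 0.67 for H2-Aa, -1.29 ± 0.55 for H2-Eb1 and -2.21 ± 1.00 for H2-DMb1, and 0 of 7 members passed with edgeR, as with DESeq2, against 0.0371% of all genes (1250 had an unadjusted p under 0.05). Ciita, with no count at day 1 in squamous-like cells, gave 3.15 ± 5.51.

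**Figure D3:**
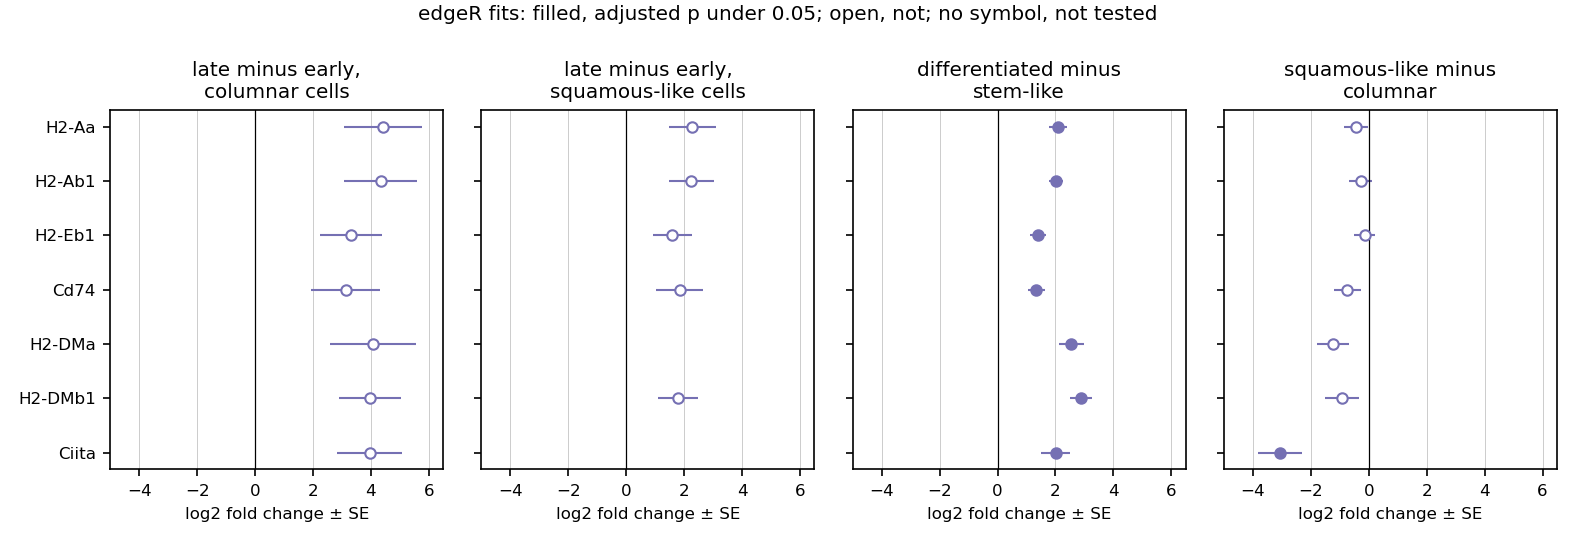
Fitted log2 differences (point) with their SE (bar) of the 7 genes in 4 comparisons, with filled points for adjusted p under 0.05. The 7 differences between differentiated and stem-like cells are filled, as is Ciita at -3.07 in squamous-like minus columnar cells.

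Endothelial-like cells had low levels at day 1 and day 3. H2-Aa was at 97.7, 61.1, 33.2 and 772 CPM in the 4 tumor libraries (12, 62, 58 and 15 cells), and Ciita had no count in the 4 libraries. The day 6 value lay within the range of the other reference types. The late minus early difference was not called for any of 4 members tested, against 0.0583% of 5150 genes. CAF-like cells had 102, 37.9, 36.8 and 581 CPM of H2-Aa and neutrophil-like cells 389, 142, 27.7 and 1083 CPM. In both, 0 of the members tested were called (3 and 4 members, 0% of 3333 and 0% of 2770 genes), while 269 and 158 genes had an unadjusted p under 0.05, and DESeq2 called 0 of the 11 tests over the 3 types. Day 6 was thus the highest library in endothelial-like, CAF-like and neutrophil-like cells too. Without day 3, 6 of 30 tests of members in stromal and immune types passed, all higher, against 1.05% of the tests over all genes: H2-Aa and H2-Ab1 in endothelial-like cells and Cd74, H2-Aa, H2-Ab1 and H2-Eb1 in CAF-like cells.

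In normal colon, columnar cells (328 cells) had 140 CPM of H2-Aa (95% interval 127 to 154 CPM), 93.7 CPM of H2-Ab1, 63.9 CPM of H2-Eb1 and 129 CPM of Cd74. H2-DMa, H2-DMb1 and Ciita were at 14.4, 25.04 and 4.49 CPM, the last from 14 counts. For H2-Aa and H2-DMa these levels lay between those of day 6 and of the other 3 tumor libraries, and with 1 normal library, another dissociation and other tissue the difference had no test. Differentiated cells (193 cells) had 188 CPM of H2-Aa, 194 CPM of Cd74 and 6.11 CPM of Ciita. The remaining 135 columnar cells, called cycling, had 87.9, 56.8 and 2.71 CPM, and 1 cell held 86 of their 130 H2-Aa counts. Differentiated cells lay above 6 of 7 reference types in Cd74 and above 5 of 7 in H2-Aa. The endothelial-like cells lay above them in both, and the lymphatic endothelial-like cells (270.5 CPM) in H2-Aa. For H2-Aa the T cell-like cells (14 cells, 5 counts) were level with them, at 187.2 against 187.6 CPM. The Cd74 share of differentiated cells after thinning was 20% (38 of 190 cells), against 8.33% of only 12 T cell-like cells and 3.37% of fibroblast-like cells. At the ratio in the normal macrophages, C1q macrophage-like RNA would give 15.9% of the H2-Aa of columnar cells, and Krt8 was at 142 to 312 CPM in the references against 5593 CPM in columnar cells, a smaller share of the columnar level than at day 6. Normal endothelial-like cells had 452 CPM of H2-Aa, 352 CPM of Cd74 and 11.2 CPM of Ciita (2 counts). Of these 48 cells 34 had no H2-Aa count, and 2 cells, both among the highest doublet scores, held 33 and 20 of the 81 counts. Without these 2 cells the level was 163 CPM.

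Each type with at least 10 cells in 3 tumor libraries was set against T cell-like cells, which had at least 10 cells in 2 libraries (14 and 137 cells). C1q macrophage-like cells were higher for 7 of 7 members, with log2 differences of 4.97 (H2-DMa) to 6.25 (H2-Ab1), against 5.16% of 10170 genes. The other macrophage-like cells were also higher for 7 of 7, against 7.19%. Plasma-like cells were higher for 3, with 3.68 for Cd74 and calls for H2-Ab1 and H2-Eb1, against 2.73%, and with total counts as the scale Cd74 alone was called, at 2.78. The 9 remaining types had 0 of 7 called in either direction, against 9.75% of genes in columnar, 11.4% in squamous-like, 13.6% in goblet-like, 12.4% in enteroendocrine-like, 8.2% in Paneth-like, 10.7% in endothelial-like, 10.7% in lymphatic endothelial-like, 11.6% in CAF-like and 7.89% in neutrophil-like cells. For columnar cells the difference was 0.10 ± 0.69 for H2-Aa and 0.08 ± 0.77 for Cd74. Over all genes the total-count scale changed the higher and lower calls from 525 and 231 to 446 and 327 for C1q macrophage-like, from 731 and 255 to 505 and 517 for other macrophage-like and from 278 and 236 to 134 and 1852 for plasma-like cells.

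Ordered by the mean log2 of the summed members, C1q macrophage-like cells (15.25) came before other macrophage-like (14.05), plasma-like (11.47), neutrophil-like (10.15), columnar (9.41), lymphatic endothelial-like (9.22), goblet-like (9.19), T cell-like (9.07), enteroendocrine-like (9.07), squamous-like (9.02), endothelial-like (8.998), CAF-like (8.74) and Paneth-like cells (8.50). The steps from other macrophage-like to plasma-like cells (6 of 7 members called, against 10.9% of genes called higher) and from plasma-like to neutrophil-like cells (2 of 7, Cd74 and H2-Ab1, against 5.7%) passed the test. Between the 2 macrophage-like types 0 of 7 were called, against 1.61%, and in the 9 lower steps 0 members were called, against 18% of tests over all genes. The means are over 2 libraries for T cell-like cells, 3 for both macrophage-like types and for plasma-like, lymphatic endothelial-like, goblet-like and Paneth-like cells, and 4 for the rest, and Paneth-like cells had no mean that included day 6, so the order mixes type and library.

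The ratio of Cd74 to H2-Aa counts differed between the library structures. Its median over cell types was 1.30 (8 types, 0.987 to 4.32) in day 1 replicate 1 and 2.18 (4 types) in day 3, both single index. In the dual-index libraries it was 0.619 (7 types) in day 1 replicate 2, 0.556 (13 types) in day 6 and 0.737 (8 types) in normal colon. H2-Eb1 per H2-Aa gave medians of 1.15 and 1.46 in the single-index and 0.839, 0.642 and 0.793 in the dual-index libraries. A difference in Cd74 or H2-Eb1 between libraries of unequal structure therefore mixes the cells with the library type, and the part of either was not tested.

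**Figure D4:**
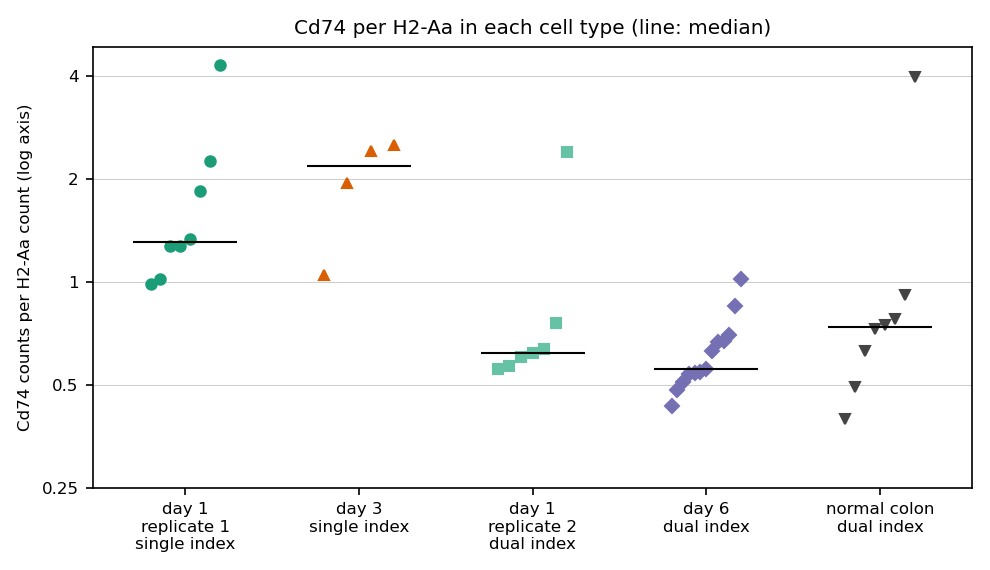
Cd74 counts per H2-Aa count (log axis) by library, with 1 point per cell type that had at least 20 counts of each. The medians of the single-index libraries, 1.30 and 2.18, lie above those of the dual-index libraries, 0.619, 0.556 and 0.737.

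The genes upstream of Ciita were counted in lists. Between differentiated and stem-like cells, 22.9% of the 10520 genes tested were called higher. Of the 6 tested genes of interferon-γ signaling, 5 were higher (median 1.10, against -0.01 over all genes). Ifngr1, a chain of the interferon-γ receptor, stood at 171, 137, 66.9 and 299 CPM in differentiated and 23.3, 21.0, 23.0 and 17.2 CPM in stem-like cells and differed by 3.35 ± 0.26. Ifngr2, the other chain, differed by 0.66, the kinase Jak1 by 0.56 and the transcription factor Irf1 by 1.54. Of the 5 tested promoter factors 0 were higher and 2 lower (Creb1 -0.64 and Nfyb -0.77), against 2155 lower calls over all genes. The genes that trim Cd74 and antigen in the endosome had 4 of 5 higher. Ctss, the protease that makes the last cut of Cd74, stood at 233, 110, 134 and 505 CPM in differentiated and 16.8, 13.9, 38.3 and 62.9 CPM in stem-like cells and differed by 3.77 ± 0.30. Ctsl differed by 1.497, Ctsb by 0.92 and Ctsd by 0.49. Class I presentation had 7 of 9 higher (median 0.79), with H2-K1 at 1.13, H2-D1 at 1.43, B2m at 0.86 and Tapbp at 0.67. These list differences are on the TMM scale alone. The total-count scale made the differences of the members smaller, and the list genes are not given on it. Small differences, such as those of Jak1, Ifngr2, Ctsd and Tapbp, and the counts of higher genes may therefore depend on the scale. Of the macrophage marker list 3 of 6 genes were tested and 1 was higher, Csf1r at 1.60, and the B cell list was not tested because of low counts.

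Over time the same lists had 0 genes called in columnar cells, against 0% of 13518 genes. The medians of the late minus early difference were 3.98 for the 7 members, 3.04 for class I presentation (9 of 9 above 0), 1.73 for interferon-γ signaling (6 of 6 above 0), 0.99 for processing and 0.07 for the promoter factors, against 0.03 over all genes. Irf1 stood at 39.1, 49.1, 52.7 and 263 CPM and B2m, the class I light chain, at 348, 114, 334 and 2446 CPM in the 4 tumor libraries. Both were highest at day 6 by a wide margin, as the members were. Between squamous-like and columnar cells Ifngr2 was lower (-1.27 ± 0.23), as were Ctss (-1.70 ± 0.30) and Irf8 (-1.39 ± 0.36), a regulator of Ciita in myeloid and B cells. Cd80, a ligand of T cell co-stimulation, was higher (1.77), and 0 of 9 class I genes were called (median -0.23, against -0.08 over all genes). The macrophage markers had 0 of 6 called in this comparison, in which 9.11% of 13485 genes were called lower.

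Outside the 7 genes, the pattern across 37 sums of at least 20 cells (library by type) was most alike for Ctss, with a Pearson correlation of 0.938 between its log2(CPM + 20) and the mean of the 6 members other than Ciita, among 7843 genes. Ly86 (0.886), Psap (0.872), Unc93b1 (0.867), Psmb8 (0.866), Cybb (0.865), Pld4 (0.848), Npc2 (0.847), Pou2f2 (0.846) and Cst3 (0.831) followed. Ciita itself had 0.931. Sums of 1 library share its depth and free RNA, so these values are descriptions.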

How the data were processed

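Single-cell RNA-seq counts of 4 libraries of treated AOM/DSS tumors and 1 of normal colon were used. The authors deposited tables of cells by genes holding raw UMI counts, made with dropEst on the mouse genome GRCm38, with no normalization. The members and the gene lists were chosen with earlier results of these data known. Cells with at least 500 genes and at most 15% mitochondrial counts were clustered (scanpy 1.11.5; 2000 variable genes without the members, 20 components, Leiden resolution 1, immune clusters again at 3) and named from marker genes, tumor and normal libraries apart. Counts were summed over at least 10 cells per library and type and tested with edgeR 4.0.16 (quasi-likelihood, TMM, filterByExpr, Benjamini-Hochberg adjustment over all genes, R 4.3.3), with library as a block where types were compared. DESeq2 1.42.0 and the settings of the closing section were alternatives. T cell-like cells gave 2 sums where 3 had been planned. Scrublet marked 11 of 7396 tumor and 7 of 1095 normal cells, under 0.5% of the tumor cells, so that doublets were left in and the 6% of cells with the highest scores were removed as an alternative. Named genes were the 7 members and at most 4 genes per list, by level over all cells, besides genes called in a list. Promoters came from RefSeq (GRCm38.p6). The tests were run on simulated counts with a fixed dispersion (variability between sums) and no library effect. That check does not cover the spread between these libraries.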

Additional observations from a re-analysis of the deposited data

Results flagged for a closer look

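For several members the later minus earlier difference ran in opposite directions in the 2 library structures, that is from day 1 replicate 1 to day 3 (single index) and from day 1 replicate 2 to day 6 (dual index), as log2(CPM + 20). Each direction rests on 1 pair of libraries, and the difference was not tested. In columnar cells H2-DMa changed by -0.14 in the single-index and 2.18 in the dual-index pair. In squamous-like cells H2-Aa changed by -0.027 and 3.23, and H2-Eb1 by -0.043 and 2.54. In endothelial-like cells H2-Aa changed by -1.15 and 3.29, and H2-Eb1 by -0.19 and 2.94. In neutrophil-like cells H2-Aa changed by -3.10 and 2.76, H2-Eb1 by -2.18 and 2.10, Cd74 by -1.99 and 2.44, and H2-Ab1 by -1.27 and 2.55. Day 3 and day 6 differ in structure, so that structure and day cannot be told apart between the pairs.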

How the results depend on the processing

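No paired analysis over time was made because the labels name no mouse or other unit shared by early and late libraries. Types of the same libraries were compared with library as a block. Of 7 members, the late minus early comparison in columnar cells called 0 with edgeR, 7 with DESeq2, 7 with no filter and 0 to 7 when 1 library was left out (7 without day 3). In squamous-like cells it called 0, 2 with no filter and 0 to 2 with 1 library left out. In stromal and immune types it called 0, 1 with no filter, 1 with library structure as a block and 0 to 6 with 1 library left out (6 without day 3). The squamous-like minus columnar comparison called 1, 2 without cells that held immune UMIs, 0 without columnar clusters that had no leading marker and 0 to 1 with 1 library left out. The interaction called 0, 1 with no filter and 0 to 5 with 1 library left out. Against T cell-like cells 17 of 84 tests passed, 10 of 77 at clustering resolution 2 and 0 to 17 with 1 library left out, where macrophage-like types then had under 3 sums and were not tested. Differentiated minus stem-like cells had 7 calls, and 5 to 7 with 1 library left out (5 without day 6), with smaller differences on the total-count scale.

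With 1 library left out, the late minus early difference of H2-DMa in columnar cells ran from -0.28 (without day 6) to 5.06. The squamous-like minus columnar difference ran from -1.22 to 0.0011 for Cd74, -0.69 to 0.18 for H2-Aa, -0.54 to 0.34 for H2-Ab1, -0.33 to 0.40 for H2-Eb1 and -1.30 to 0.22 for H2-DMb1, and the interaction from -2.29 to 0.78 for Cd74 and -2.16 to 0.58 for H2-DMa, each upper end without day 6. Plasma-like minus T cell-like turned negative for H2-DMa (-0.080 with total counts as the scale) and H2-DMb1 (-0.31 with total counts, -0.058 at resolution 0.5 and -0.012 without the highest Scrublet scores). In normal colon H2-Aa in endothelial-like cells fell to 168 CPM without the highest Scrublet scores, and in B cell-like cells to 3714 CPM at resolution 0.5. Without thinning, Cd74 was found in 50.7%, 10.8%, 33.3% and 83.2% of columnar cells of day 1 replicate 1, day 1 replicate 2, day 3 and day 6 and 36.9% of those of normal colon, and in 43.4%, 6.38%, 35.0% and 64.7% of squamous-like cells. The total-count scale and the neutrophil-like reference were chosen after seeing the data. The cause of these shifts was not tested. With 2 libraries in each time group and 1 normal library, the number of libraries limits each comparison over time, and low counts limit Ciita and the H2-DM genes outside day 6.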

Other observations

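Lymphatic endothelial-like cells, the lining of lymph vessels, had 30.6, 87.3 and 861 CPM of H2-Aa in day 1 replicate 2, day 3 and day 6 and 271 CPM in normal colon, where they were 21 cells with 15 counts. NK-like cells had 463 CPM in day 6 (17 cells), the lowest of the 6 reference types. Normal fibroblast-like cells (365 cells) had 66.8 CPM of H2-Aa, 26.5 CPM of Cd74 and 2 counts of Ciita.

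The columnar cluster of day 6 with the most H2-Aa (208 cells, 2632 CPM, chosen after its values were seen) had Ido1, Nos2, Ubd and Saa1 among its leading genes. Ido1 degrades tryptophan, Nos2 makes nitric oxide, and both are known to be inducible by interferon-γ. In this cluster Cd74 was at 1505 CPM and Ciita at 54.2 CPM, the latter close to the 52.0 CPM of the shallower differentiated cluster and the 59.9 CPM of the deep cycling cluster of day 6.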
